A study of Mus musculus with 4 samples.

Results

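Resting transferred CD8 T cells with Tcf7 transcript were examined in mouse melanoma, 616 of them in the library of control cells and 80 in the library of IRF4-transduced cells. The cells were chosen from their unique molecular identifiers (UMIs, each standing for 1 captured transcript). Barcodes under 1000 UMIs or 500 genes were dropped, as were those above a mitochondrial share of 10%. A kept cell then needed at least 2 UMIs of Cd8a and Cd8b1 together (the CD8 gate) and at least 1 UMI of Tcf7. It also needed fewer than 10 UMIs of Lyz2 and fewer than 10 of Ifng and Xcl1 together per 10000, fewer than 5 of Gzmb per 10000, and fewer than 2 of Mki67 and Top2a together. The resulting 696 cells are called resting Tcf7 cells here, of 15132 kept cells among 17711 barcodes in the whole series. The genes of this rule, Tcf7 above all, are given as description only.

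The study treated C57BL/6 mice bearing B16F10 melanoma, a transplantable tumour of that strain, with Pmel-1 T cells on day 3 after tumour implantation. Pmel-1 cells are CD8 T cells with a transgenic receptor for a melanocyte antigen (gp100), and they carried either IRF4 with GFP or GFP alone. On day 14 transferred cells (Ctrl_Pmel and IRF4_Pmel) and endogenous CD45+ cells of both arms (Ctrl_TILs and IRF4_TILs) were sorted from the tumours, with 1 droplet library in each of the 4 groups. The age, sex and number of animals, the vector and any conditioning of the hosts are not given in the labels, and all groups share strain and tumour. With 1 library per group no test of a difference between arms is possible, so every interval below covers counting error only, at 95%.

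TCF1, the product of Tcf7, is an HMG-box transcription factor that acts with its relative LEF1 downstream of Wnt signals. In chronic infection and tumours it marks CD8 T cells that self-renew, hold back effector genes and give rise to effector and exhausted cells. IRF4 is induced by T cell receptor signalling, partners BATF and JUN proteins at composite DNA sites, and is known for promoting effector metabolism and differentiation.

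The transferred libraries held 3640 barcodes with 94686409 UMIs (control) and 715 with 16664323 (IRF4), and the endogenous libraries 6375 and 6981 barcodes with 84211837 and 81843816 UMIs. The CD8 gate passed 2117 and 497 transferred cells and 892 and 2119 endogenous ones. Resting Tcf7 cells had a median of 11474 UMIs and 2941 genes in the control library and 12132 UMIs and 2811.5 genes in the IRF4 library, with median mitochondrial shares of 4.22% and 4.09%. Their summed UMIs were 8240291 and 1024343, so a gene is measured about as finely as its count in the smaller group of 80 cells allows. No barcode of these cells was shared between the transferred libraries. Control cells shared 1 barcode with each endogenous library, and IRF4 cells shared 1 with Ctrl_TILs and 0 with IRF4_TILs.

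Irf4 itself, read by the same UMIs whether it came from the vector or the genome, stood at 11.9 CPM (counts of the gene per 1000000 UMIs) in control and 22.5 CPM in IRF4 resting Tcf7 cells, a ratio of 1.89 (1.14 to 3.0). Vector-derived and endogenous Irf4 transcripts cannot be told apart in these counts. Irf4 was at 48.4 and 34.0 CPM in cytokine-high transferred cells and at 26.2 and 28.1 CPM in cycling ones. In endogenous resting Tcf7 cells it was at 6.09 and 3.42 CPM. In the 41 cytokine-high cells of the IRF4 library Irf4 read lower than in control, with no interval computed. In the resting Tcf7 cells the targeted gene was above control in the library labelled IRF4. When every cell was thinned to 2000 UMIs and the gates were set again on the thinned counts, the sign turned (log2 ratio -0.13). That step changes the cells chosen as well as their depth, and the part of each was not tested. The direction of Irf4 in resting Tcf7 cells thus depended on the processing.

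The origin of the cells was read from their receptor. A UMI of Trbv14, the gene in the files that carries the transgenic beta chain's variable segment in these cells, was found in 522 of 616 control (84.7%) and 69 of 80 IRF4 (86.3%) resting Tcf7 cells. Among endogenous cells passing the same gates it was found in 3 of 297 (1.01%) and 8 of 503. Trbc2, the constant segment, stood at 10833 and 13903 CPM in the transferred cells against 1457 and 1782 CPM in the endogenous ones. A UMI of another Trbv gene was found in 58 control and 5 IRF4 cells, against 84 and 112 endogenous ones. Trav7 genes, searched for the alpha chain, were found in 11 and 1 transferred and 4 and 12 endogenous cells. Most cells of both transferred sets thus had a UMI of the beta segment that their label implies. In 94 control and 11 IRF4 cells, with medians of 7105.5 and 5707 UMIs, Trbv14 was not seen, and their origin was not tested.

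The cells fell into 2 kinds by sex-linked transcripts, in both libraries. Xist without any of 4 Y-linked genes was found in 146 control and 21 IRF4 cells, and Y-linked UMIs without Xist in 354 and 49. UMIs of both were found in 61 and 3 cells, and of neither in 55 and 7. Trbv14 was detected in 97.3% and 100% of the Xist-only cells and in 80.5% and 83.7% of the Y-linked-only cells. Trbc2 was at 14868 and 18260 CPM in the former and 9250 and 11887 CPM in the latter. The labels do not give the sex of donors or hosts, so differences between arms are given below within each kind as well.

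The label of the cells was checked against marker genes over 5 classes of CD8-gated transferred cells: the resting Tcf7 cells, resting cells without a Tcf7 UMI, granzyme B-high, cytokine-high and cycling cells. Il7r (the interleukin 7 receptor alpha chain), Lef1 (partner of TCF1), Slamf6 (a receptor that marks precursors of exhausted cells), Tox (a transcription factor of exhausted cells) and Id3 (an inhibitor of E proteins of memory precursors) were highest in the resting Tcf7 cells of both libraries. Dapl1, a transcript known from naive and memory T cells, was at 493 CPM in control resting Tcf7 cells, level with the cycling cells. In the IRF4 library it was highest in the resting Tcf7 cells, at 568 CPM against 343 CPM in the cycling cells and 4.37 CPM in the granzyme B-high cells. S1pr1, the receptor for exit from tissue, ranked 2 of 5 at 33.7 CPM in control and 3 of 5 at 13.7 CPM in IRF4 cells. Cxcr5, the follicle homing receptor found on related cells in chronic infection, was at 2.06 and 0 CPM. Pdcd1, the receptor PD-1, ranked 2 of 5 in control (334 against 338 CPM in granzyme B-high cells) and 4 of 5 in IRF4 cells (286 CPM against 439, 409 and 301 CPM in granzyme B-high, Tcf7-free resting and cytokine-high cells). Ccr7, a lymph node homing receptor, ranked first in control and 2 of 5 in IRF4 cells (328 against 329.8 CPM in Tcf7-free resting cells). Tcf7 was required by the rule, so its level checks nothing. Il7r was highest in the resting Tcf7 cells of both libraries and Dapl1 in those of the IRF4 library, while other markers of the same groups ranked lower and Cxcr5 was near or at 0.

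**Figure D1:**
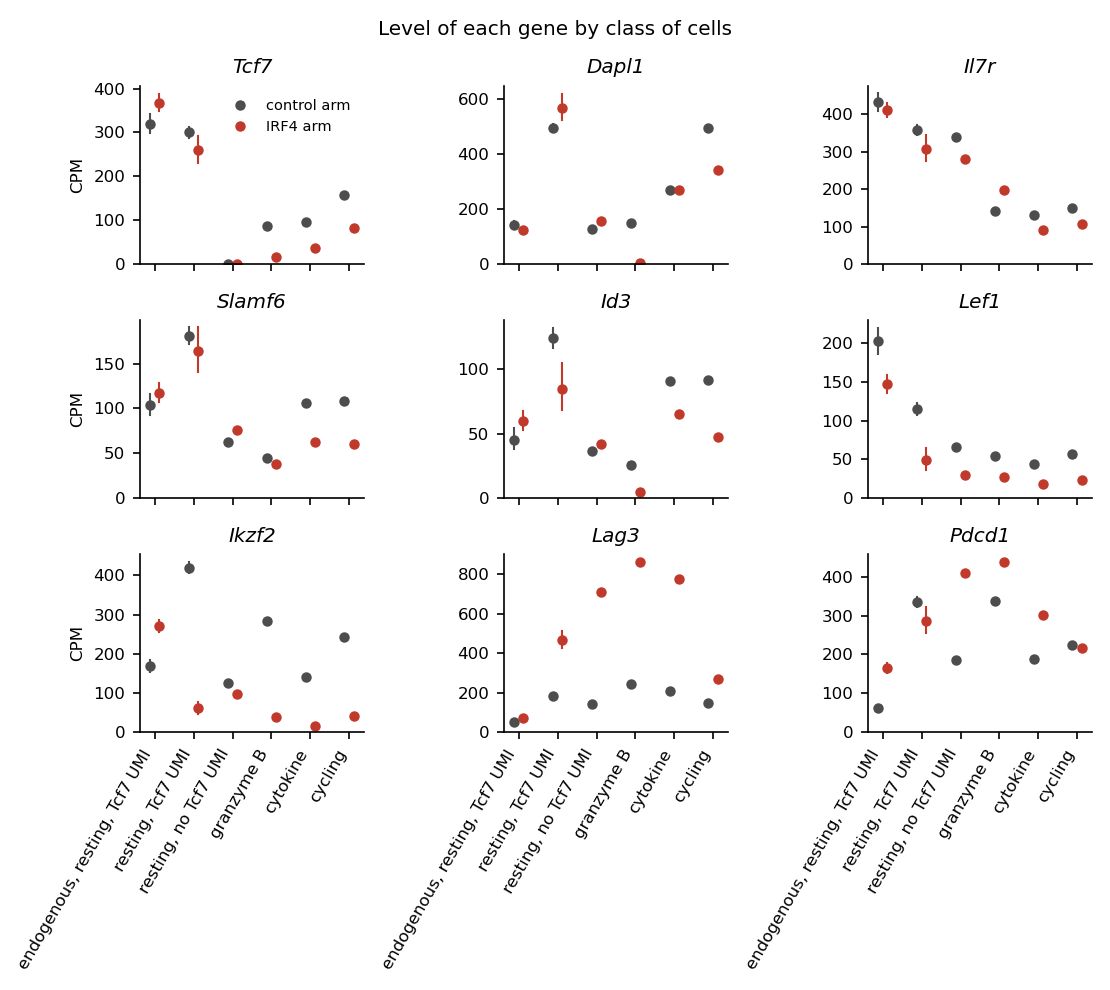
Levels in CPM (vertical axes) of 9 genes in endogenous resting Tcf7 cells and the 5 classes of transferred cells (horizontal axis), for the control and IRF4 arms, with 95% Poisson intervals on the resting Tcf7 cells. Slamf6, Id3 and Lef1 are highest in the resting Tcf7 cells among transferred classes of either library, while Ikzf2 is at 419 CPM there in the control library and at 60.5 CPM in the IRF4 library.

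The genes of the 3 markers lie on different chromosomes of mm10 in the GENCODE vM21 annotation. Tcf7 (ENSMUSG00000000782) spans chr11:52252371-52283014 on the minus strand, Dapl1 (ENSMUSG00000026989) chr2:59484653-59505020 on the plus strand, and Il7r (ENSMUSG00000003882) chr15:9505788-9530176 on the minus strand. Genes on which the comparisons between arms turn are Lag3 at chr6:124904361-124911705 (minus), Ctla4 at chr1:60887000-60915832 (plus), Ikzf2 at chr1:69531214-69687245 (minus), Lef1 at chr3:131110471-131224356 (plus) and Irf4 at chr13:30749226-30766976 (plus). The 3' kit counts transcripts of a gene by their ends, so a UMI is not tied to a position within it.

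Resting Tcf7 cells were a smaller share of the CD8-gated transferred cells in the IRF4 library. They made up 29.1% (27.2 to 31.1) of control and 16.1% (13.0 to 19.6) of IRF4 cells, a ratio of 0.553 (0.433 to 0.699). Resting cells as a whole were 38.5% and 29.0% (ratio 0.754, 0.627 to 0.901). Among them, those with a Tcf7 UMI were 75.7% and 55.6%, a ratio of 0.734 (0.574 to 0.928). Both steps of the rule, resting state and Tcf7 UMI, were thus met less often in the IRF4 library.

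The share was also read at equal depth. With each cell thinned to 2000 UMIs, a Tcf7 UMI was found in 296 of 811 control (36.5%) and 30 of 144 IRF4 (20.8%) resting cells, a ratio of 0.571 (0.378 to 0.832). Resting cells with a Tcf7 UMI were then 14.015% and 6.04% of CD8-gated cells. In the endogenous libraries resting cells with a Tcf7 UMI were also a smaller share of CD8-gated cells in the IRF4 arm, 33.3% and 23.7% as counted and 17.4% and 12.6% thinned, and resting cells as a whole were 59.9% and 38.1%. Among endogenous resting cells the thinned Tcf7 share was 29.0% (25.2 to 33.1) and 32.9% (29.7 to 36.3), with overlapping intervals. Whether the arms differ more in transferred than in endogenous cells was not tested. In the endogenous libraries, thinned, 0.181% of B cell marker cells and 0.186% of Lyz2 cells in the control arm and 1.32% and 0.400% in the IRF4 arm had a Tcf7 UMI. Free transcript in the transferred libraries themselves was not measured. Those cells had median depths of 3766.5 and 14390 UMIs (control) and 3955 and 11610 UMIs (IRF4).

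The shares of the other classes differed as well. Resting cells without a Tcf7 UMI were 9.35% and 12.9% of CD8-gated cells, a ratio of 1.38 (1.02 to 1.83). Granzyme B-high cells were 2.98% and 13.1%, a ratio of 4.39 (3.06 to 6.32), the widest ratio among the 5 classes. Cytokine-high cells were 14.8% and 8.25% (0.558, 0.393 to 0.774), and cycling cells 43.8% and 49.7% (1.14, 0.982 to 1.31). The sort recovered 1 set of cells per arm, so whether a second set would give the same shares was not tested.

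**Figure D2:**
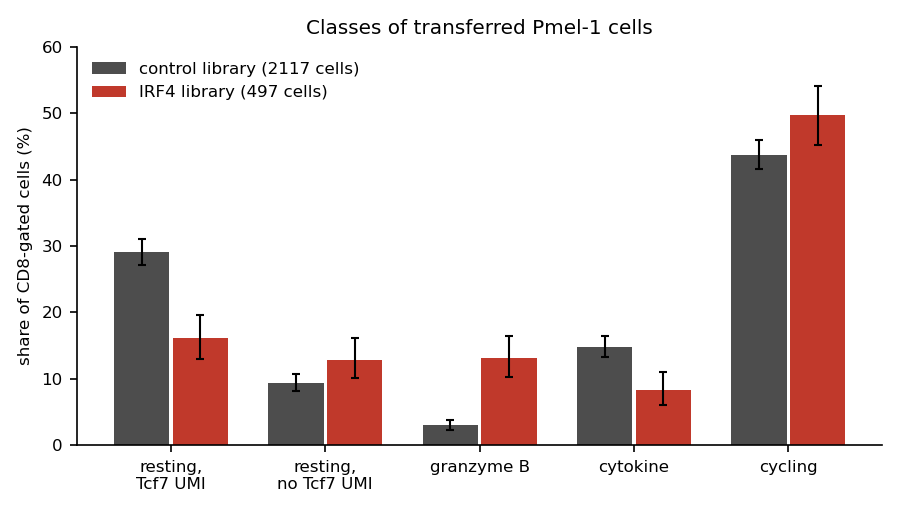
Share of CD8-gated transferred cells in percent (vertical axis) in each of 5 classes (horizontal axis), control and IRF4 libraries side by side, with 95% Clopper-Pearson intervals for counting error. Resting Tcf7 cells stand at 29.1% and 16.1%, and granzyme B-high cells at 2.98% and 13.1%.

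Resting Tcf7 cells were next set beside the resting cells without a Tcf7 UMI, 198 in the control and 64 in the IRF4 library. Cells in this second group were shallower, with medians of 6553 and 8202 UMIs, and the part of depth in the split was not tested. Ribosomal genes took 35.2% and 36.7% of UMIs in the resting Tcf7 cells and 31.7% and 30.8% in the others. The rule used this contrast, so its values are a description. A gene was called measured at 10 CPM or more in either group with at least 10 UMIs in all, and higher or lower past a ratio of 1.5 computed with 1 CPM added. Of 7636 measured genes 5.61% were higher and 7.67% lower in control resting Tcf7 cells, and of 7416 in the IRF4 library 11.3% were higher and 16.1% lower. With ribosomal and mitochondrial genes left out of the total, the higher share of all calls went from 42.2% to 59.1% in the control and from 41.2% to 60.2% in the IRF4 library.

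Several transcription factors of memory and precursor cells were higher with Tcf7 in both libraries. Of 15 stem and memory transcription factors, 15 were measured in the control library, where Bach2, Id3, Lef1 and Myb were higher and Eomes lower. In the IRF4 library 13 were measured, with Bach2, Id3, Lef1, Myb and Satb1 higher and Nfil3 lower. Myb, a factor that sustains self-renewal of precursor CD8 cells, was at 92.7 against 30.4 CPM in control and 79.1 against 9.75 CPM in IRF4 cells, ratios of 3.05 and 8.11 (3.57 to 22.8). Id3 was at 124 against 36.5 CPM and at 84.9 against 42.2 CPM, ratios of 3.4 and 2.01. Lef1 had ratios of 1.74 and 1.67, and Bach2, a repressor of effector genes, 2.06 and 1.83. The 4 factors called in both libraries are thus the same, with the wider interval in the smaller IRF4 group.

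Several surface receptors of memory cells were also higher with Tcf7. Of 15 measured memory and survival receptors, 6 were higher in control cells (Ccr7, Cd200, Dapl1, Il6st, Slamf6, Tnfsf8) and 1 lower (Ly6c2), with a list median log2 ratio of 0.45. In IRF4 cells 5 of 15 were higher (Cd9, Dapl1, Il6st, Slamf6, Tnfsf8) and 3 lower (Bcl2, Il6ra, S1pr1), with a median of 0.13. The medians over all measured genes were -0.05 and -0.07. Dapl1 was at 493 against 126 CPM and 568 against 156 CPM, ratios of 3.93 (3.39 to 4.57) and 3.64 (2.93 to 4.57). Slamf6 had ratios of 2.91 and 2.15, and Tnfsf8, the ligand of CD30, 2.05 and 1.54. Il7r was nearly level, at 358 against 339 CPM and 308 against 281 CPM, so this marker does not separate resting cells by Tcf7.

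Several effector and tissue-homing genes were lower with Tcf7. Of 10 measured cytotoxic genes Fasl, Gzma and Gzmk were lower and none higher in the control library, and of 9 in the IRF4 library Fasl, Gzmk, Prf1 and Srgn were lower. The chemokine receptor and adhesion genes had 5 of 11 lower in control (Ccr2, Cd44, Cxcr3, Cxcr6, Itga1) and 5 of 10 in IRF4 cells (Ccr2, Cxcr3, Cxcr4, Cxcr6, S1pr4). Cxcr6, a tissue retention receptor, was at 172 against 613 CPM and 89.8 against 466 CPM, ratios of 0.280 and 0.193. Ccl5, a chemokine of effector and memory cells, was at 1557 against 3898 CPM and 681 against 3848 CPM, ratios of 0.400 and 0.177. Id2, the effector-side inhibitor of E proteins, had ratios of 0.333 and 0.334, and S100a4, a cytoskeletal calcium-binding protein, 0.309 and 0.127. Id2 and Id3 thus lay on opposite sides in both libraries.

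Several inhibitory receptors and exhaustion genes did not take the same side in the 2 libraries. In control cells 6 of 13 measured were higher with Tcf7 (Btla, Ctla4, Ikzf2, Nr4a2, Pdcd1, Tox) and 3 lower (Cd244, Cd38, Entpd1), and in IRF4 cells 1 of 13 was higher (Cd160) and 5 lower (Entpd1, Havcr2, Ikzf2, Lag3, Tigit). Pdcd1 was at 334 against 184 CPM in control and 286 against 409 CPM in IRF4 cells, ratios of 1.81 and 0.699. Ctla4 had ratios of 1.89 and 0.706, and Ikzf2, the factor Helios, 3.37 and 0.621. Havcr2, the receptor TIM-3 of terminally exhausted cells, had 1 UMI in IRF4 resting Tcf7 cells against 34 in the others, a ratio of 0.0177 (0.000435 to 0.105). It was at 4.37 against 6.75 CPM in control cells. The difference between libraries was not tested, since each holds 1 sample.

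**Figure D3:**
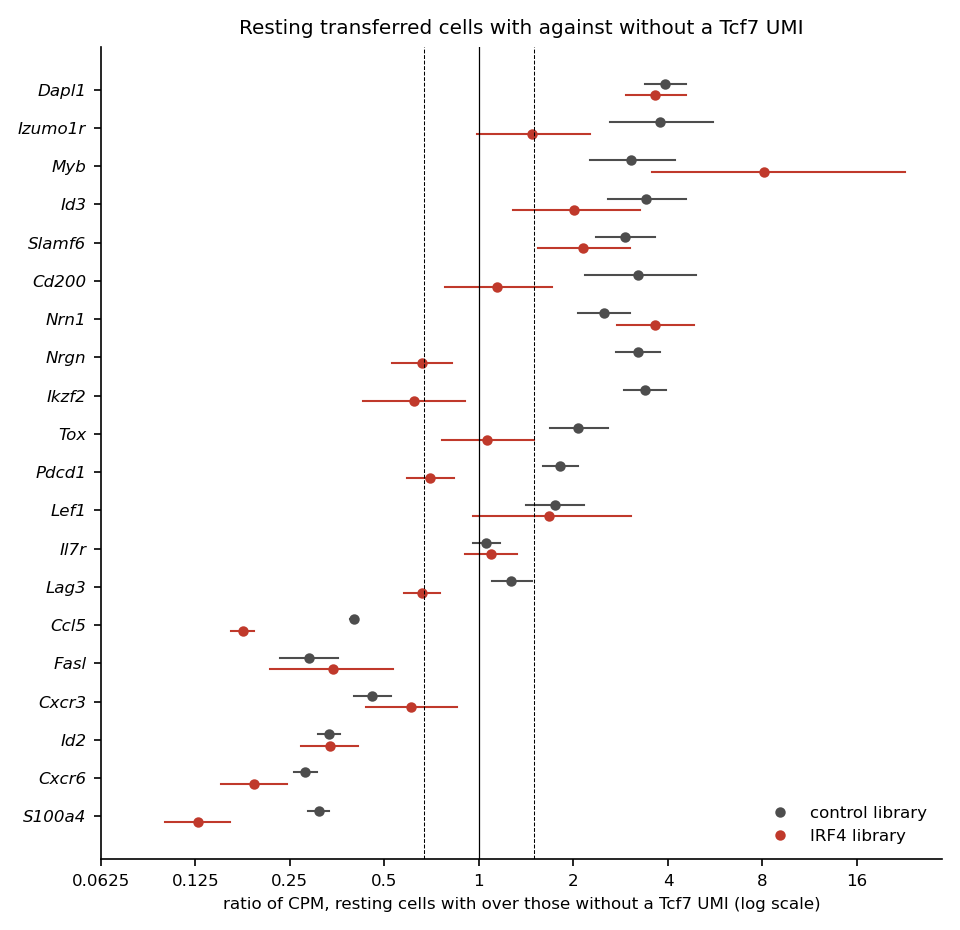
Ratio of CPM in resting cells with over without a Tcf7 UMI (log axis) for 20 genes, control and IRF4 libraries, with 95% intervals for counting error. Dapl1 (3.93 and 3.64), Myb and Id3 are above 1.5 in both libraries, Cxcr6 (0.280 and 0.193) is below 1/1.5 in both, and Ikzf2 lies on opposite sides (3.37 and 0.621).

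The highest and lowest genes by the naming rule were partly T cell genes and partly transcripts held by few cells. In control cells the 5 highest were Dapl1, Izumo1r (folate receptor 4, ratio 3.76), Ikzf2, and Cxcl2 and Ccl2, of which 3 and 2 cells held 50% of the UMIs. The 5 lowest were Cxcl3 (1 cell), Gzma (0.159), Klra7, Cxcr6 and Ccl6. In IRF4 cells Myb, Dapl1, Nrn1 (neuritin, 3.62), Bend4 (2.89) and Ap3b1 (2.66) were highest, and Havcr2, Lgmn, Fcer1g, Apoe and Tyrobp lowest. The last 4 are myeloid genes, and 1 or 2 cells without Tcf7 held 50% of their UMIs. For Myb and Nrn1, 6 and 8 IRF4 cells with Tcf7 and 2 and 3 without held 50% of the UMIs of their group. Of 7059 genes measured in both libraries, 374 were higher in control and 756 in IRF4 cells, and 112 were higher in both (29.9% and 14.8% of these). Another 53 of the 374 were lower in IRF4 cells. Of 414 and 1026 lower genes 219 were lower in both (52.9% and 21.3%), and 21 of the 414 were higher in IRF4 cells.

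Cells just inside the Tcf7 threshold had more Dapl1 and Slamf6 and less Cxcr6 than those just outside, at unequal depth. The 131 control and 22 IRF4 cells with exactly 1 Tcf7 UMI had 316 and 494 CPM of Dapl1, against 126 and 156 CPM at 0 UMIs. Their Slamf6 was at 111 and 110 CPM against 62.1 and 76.4 CPM, and their Cxcr6 at 325 and 190 CPM against 613 and 466 CPM. Another 209 and 31 cells had 2 to 3 Tcf7 UMIs, and 276 and 27 had 4 or more. Within the resting Tcf7 cells thinned to 5000 UMIs, Dapl1 did not follow the Tcf7 count: at 0, 1 and 2 or more remaining Tcf7 UMIs it was at 541, 389 and 479 CPM in control and 467, 418 and 407 CPM in IRF4 cells. Slamf6 was at 116, 176 and 246 CPM in control and 147, 147 and 207 CPM in IRF4 cells. Id3 was at 91.5, 109 and 189.7 CPM in control and 120, 70.6 and 62.1 CPM in IRF4 cells. These IRF4 levels come from 15, 34 and 29 cells, with no interval computed. Near the other limits, 25 and 6 cells had 2.5 to 5 Gzmb UMIs per 10000 with 15 and 6 just outside, 92 and 8 had 5 to 10 of Ifng and Xcl1 with 64 and 4 outside, and 185 and 24 had 1 Mki67 or Top2a UMI with 99 and 12 outside at 2.

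The resting Tcf7 cells of the 2 arms were then compared with each other. Of 7474 measured genes 292 (3.91%) were higher and 789 (10.6%) lower in the IRF4 library, with a median log2 ratio over all genes of -0.08. The summed CPM of Dapl1, Il7r and Slamf6 differed little between arms. The rule required a Tcf7 UMI of every cell, so the level of Tcf7 is given as description only. Tcf7 was at 299.99 and 259.7 CPM (ratio 0.866), Dapl1 at 493 and 568 CPM (1.15, 1.05 to 1.26), Il7r at 358 and 308 CPM (0.859) and Slamf6 at 181 and 164 CPM (0.907). Each of these ratios lay between the limits of 1/1.5 and 1.5. Among cells thinned to 2000 UMIs, Dapl1 was found in 45.5% and 28.8% of cells (68.5% and 55.0% unthinned), although its CPM was not lower in the IRF4 library. Thinned B cell marker cells of the endogenous libraries had no Dapl1 UMI, 0 of 554 and 0 of 152, which allows a share of up to 0.542% and 1.97% (3 counts of the total).

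**Figure D4:**
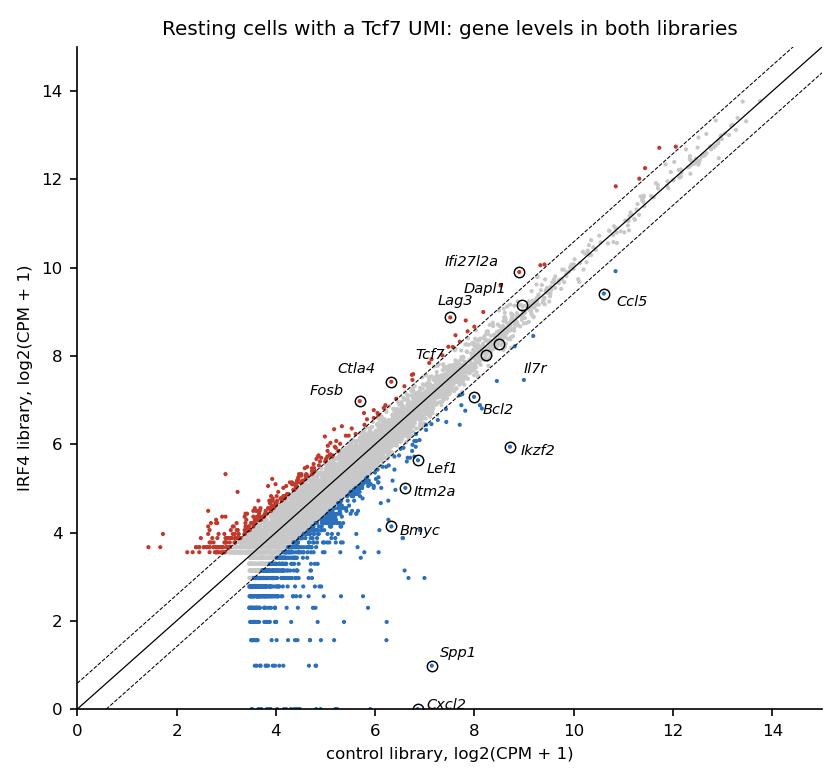
Level in control (horizontal) against IRF4 (vertical) resting Tcf7 cells, log2(CPM + 1), for 7474 measured genes, with dashed lines at a ratio of 1.5 either way. Lag3, Ctla4 and Ifi27l2a lie above the lines, Ikzf2, Lef1 and Ccl5 below them, and Tcf7, Dapl1 and Il7r between them.

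Transcription factors of stem and memory cells were lower where they differed. Of 15 measured, 0 were higher and 4 lower (Eomes, Klf7, Lef1, Nfil3), a share of 4 in 15 beside 10.6% lower among all genes, and the list median was -0.35. Lef1 was at 115 CPM in control and 48.8 CPM in IRF4 cells, a ratio of 0.423 (0.312 to 0.563). It was detected in 63.0% and 36.3% of cells, and in 22.1% and 11.3% after thinning. Eomes, a T-box factor of memory cells, was at 10.6 and 3.90 CPM. Tox was at 136 and 98.6 CPM, Id3 at 124 and 84.9 CPM, Bach2 at 51.6 and 65.4 CPM and Satb1, a chromatin organiser, at 249.8 and 311 CPM, all between the limits. Lef1 was also lower in the IRF4 library in resting cells without a Tcf7 UMI (0.442), so the same direction was seen in both resting groups.

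Among effector-side factors, 3 of 12 measured were higher (Hif1a, Irf4, Runx3) and 2 lower (Id2, Maf), with a list median of 0.23. Hif1a, the oxygen-regulated activator of glycolytic genes, was at 289 and 509.6 CPM, a ratio of 1.77 (1.60 to 1.94). Runx3, a factor of CD8 lineage and cytotoxic cells, was at 162 and 258 CPM (1.59). Id2 was lower, at 215 and 140 CPM (0.650), and turned to higher when cells were thinned and gated again (log2 ratio 0.52). Hif1a differed more in the resting cells without a Tcf7 UMI, with a ratio of 3.17.

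Inhibitory receptors and exhaustion genes moved in both directions. Of 10 measured, Ctla4 and Lag3 were higher and Btla, Cd5 and Ikzf2 lower, with a list median of -0.34. Lag3, an inhibitory receptor that binds MHC class II, was at 182 CPM in control and 468 CPM in IRF4 cells, a ratio of 2.57 (2.32 to 2.85), and was found in 67.4% and 86.3% of cells (26.6% and 46.3% thinned). Ctla4, which competes with CD28 for its ligands, was at 79.1 and 170 CPM, a ratio of 2.15 (1.81 to 2.54). Lag3 was found in 1.26% and 0.658% of thinned B cell marker cells of the endogenous libraries. Pdcd1 was at 334 and 286 CPM (0.855), so the 3 checkpoint receptors did not move together. In resting cells without a Tcf7 UMI the ratios of Lag3 and Ctla4 were 4.96 and 5.74.

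Ikzf2 was the gene with the lowest ratio among inhibitory receptors and exhaustion genes. It was at 419 CPM in control and 60.5 CPM in IRF4 resting Tcf7 cells, a ratio of 0.144 (0.111 to 0.186), and was found in 59.4% and 25% of cells (35.1% and 5.0% thinned). Thinned B cell marker cells of the endogenous libraries had it in 0.722% and 1.32% and their Lyz2 cells in 0.744% and 1.70%. In the other transferred classes it was at 124, 282, 141 and 244 CPM in control and 97.5, 37.9, 16.2 and 41.1 CPM in IRF4 cells, in the order resting without Tcf7, granzyme B-high, cytokine-high and cycling. Ikzf2 was below control in each of the 5 classes of the IRF4 library, nearest to it in the resting cells without a Tcf7 UMI (0.784). Cd5, a brake on receptor signalling, was at 118 and 67.4 CPM (0.571) and Btla at 37.4 and 20.5 CPM (0.548).

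Few genes of the memory and survival receptor list differed, and those of the chemokine receptor and adhesion list went both ways. Of 15 measured genes on the first list 0 were higher and Bcl2, Cd55 and S1pr1 were lower, with a median of -0.14. Bcl2, which blocks the mitochondrial death pathway, was at 253 and 134 CPM, a ratio of 0.528 (0.441 to 0.628). S1pr1 was at 33.7 and 13.7 CPM (0.405), while Ccr7, which guides cells to lymph nodes, was at 270.1 and 328 CPM (1.21). Among 10 measured chemokine receptor and adhesion genes Itgb1 was higher (679.6 and 1076 CPM, 1.58) and Ccr2, Cxcr4 and Cxcr6 were lower. Ccr2, a receptor for entry into inflamed tissue, was at 40.4 CPM against 2.93 CPM, or 3 UMIs, a ratio of 0.0725 (0.0149 to 0.214). Among cells with few myeloid UMIs it was at 23.9 and 3.09 CPM, a ratio of 0.13 (0.0264 to 0.386). Cxcr6 was at 172 and 89.8 CPM (0.523) and Cxcr4, a bone marrow homing receptor, at 24.3 and 6.83 CPM (0.282). Ccl5 was at 1557 and 681 CPM, a ratio of 0.438 (0.405 to 0.472), but at 0.987 in resting cells without a Tcf7 UMI. Its log2 ratio was 0.078 in resting Tcf7 cells gated again after thinning.

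Early genes of receptor stimulation were split. Of 15 measured, Egr1, Fos, Fosb and Jun were higher and Myc and Nfkbid lower, with a median of 0.17. Fosb, an AP-1 subunit, was at 50.6 and 124.96 CPM, a ratio of 2.47 (2.01 to 3.02), and was found in 33.6% and 50% of cells. Jun was at 232 and 376 CPM (1.62) and Fos at 71.1 and 112 CPM (1.58). These are also genes that tissue handling can induce, and of the heat shock and handling list Hspa1a (76.0 and 18.5 CPM) and Hspa1b (66.9 and 15.6 CPM) were lower in the IRF4 library, 2 of 9 with 0 higher and a median of -0.27. Myc, a driver of growth, was at 48.2 and 20.5 CPM (0.426) and Pim1, a survival kinase, at 75.8 and 25.4 CPM (0.335). The part of handling in these values was not tested.

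Without thinning, cytokine genes were called more often than their receptors or cytotoxic genes. Of 8 measured cytokines and chemokines Ccl1 was higher and Ccl5, Ccl9 and Tnfsf11 lower (median 0.16), beside 3.91% higher and 10.6% lower of all genes, and of 13 cytokine receptors Il2ra was higher and Il18rap and Tgfbr1 lower (-0.05). Ccl1, Ccl5, Ccl9 and Tnfsf11 each changed sign when cells were thinned and gated again. The median of the cytokine list ran from -1.72 to 0.72 over the alternative settings. Il2ra, the high-affinity interleukin 2 receptor chain, was at 13.8 and 24.4 CPM (1.76), with a negative log2 ratio after thinning and in Y-linked-only cells. Of 10 cytotoxic genes Gzma was lower, at 27.1 CPM against 1 UMI in the IRF4 library (0.0361, 0.000909 to 0.203), and 0 were higher. The rule capped Gzmb, Ifng and Xcl1, which were at 29.1 and 50.8, 14.2 and 36.1, and 267 and 184 CPM.

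Lists for quiescence, signalling, metabolism and survival gave few calls. Of 16 quiescence genes Tsc1 alone was lower (median 0.03), and of 16 receptor signalling genes Rasgrp1 alone (107 and 62.5 CPM, 0.585, median 0.03). Of 16 glycolysis genes Hk2, the hexokinase of glucose entry, and Slc16a3, the lactate exporter, were higher (median 0.10), at 7.65 and 13.7 CPM and 33.6 and 52.7 CPM. Of 13 apoptosis regulators Bbc3, the death promoter PUMA, was lower (35.7 and 18.5 CPM, median -0.02). Of 11 proliferation genes outside the rule Ccnb2 was higher (median -0.12). Of 8 T cell identity markers Cd8b1 was higher (641 and 1064 CPM, 1.66), while Cd8a was at 618 and 884 CPM (1.43).

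Most measured type I interferon genes were lower. Of 10, Ifit1, Ifit3, Irf7, Isg15, Isg20 and Rtp4 were lower and Ifi27l2a higher, with a list median of -1.10. Ifi27l2a, an interferon-induced mitochondrial protein, was at 477 and 956 CPM, a ratio of 2.0 (1.87 to 2.15), and was found in 83.3% and 92.5% of cells (48.4% and 63.8% thinned). In cells with few myeloid UMIs 8 were measured, 3 were lower and the median was -0.47. In Xist-only cells the median was 0.0050, and with a minimum of 50 CPM it was 0.29, so the direction of the list depended on which genes and cells were kept.

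Myeloid transcripts moved with the arm. The 12-gene myeloid list summed to 1273 CPM in control and 405 CPM in IRF4 resting Tcf7 cells, and 88 of 616 and 4 of 80 cells had 10 or more of its UMIs per 10000. Per cell it ranged from 0 to 630.2 per 10000 (median 2.93) in control and from 0 to 37.2 (2.46) in IRF4 cells, and 8 and 9 cells held 50% of the UMIs. S100a8 and S100a9 were at 0 in both. Of 9 measured members 8 were lower and 0 higher. The 10 lowest genes by the naming rule included Spp1, Thbs1, Cxcl2, Pf4, Ccl2, Ccl7 and Hmox1, for which 2 or 3 control cells held 50% of the UMIs. Cxcl2 had no UMI in the IRF4 library and was at least 39.2-fold lower, and Thbs1 at least 20.1-fold lower, each against a floor of 3 counts over the group.

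Leaving out the cells with 10 or more myeloid UMIs per 10000 left 528 control and 76 IRF4 cells, with 327 genes (4.41%) higher and 754 (10.2%) lower of 7423. The ratio of Lag3 was then 2.51 and that of Ikzf2 0.151. Markers of other cells were scarce: B cell markers summed to 195 and 234 CPM, of which Ighm made 176 and 215 CPM, with Cd79a and Ms4a1 at 0, Foxp3 was at 0 in both libraries, and Ncr1 and Klra8 were at 0. In the B cell, CD4 and regulatory T, and NK and gamma delta lists 2, 1 and 1 genes were measured with 0 called (medians 0.18, -0.16 and -0.00), and in the melanoma and red cell list Hbb-bs was measured and lower (-4.81). Of genes at 50 CPM or more, 47 of 52 called higher and 73 of 95 called lower kept their call among cells with few myeloid UMIs.

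The arms were also compared within each kind of sex-linked transcript. Of the same 52 higher genes, 47 had the same sign among both Xist-only and Y-linked-only cells and 30 were past 1.5 in both, and of the 95 lower genes 90 and 56. Lag3 had ratios of 2.85 and 2.5, Ikzf2 0.121 and 0.151, and Lef1 0.199 and 0.439, in Xist-only and Y-linked-only cells. Nrn1 was at 195 and 353 CPM (1.81) over all resting Tcf7 cells, but at a ratio of 0.925 in Xist-only cells. Irf4 had ratios of 5.58 and 1.24. Lag3, Ikzf2 and Lef1 thus differed between arms in both kinds of cell, whereas Nrn1 did not in Xist-only cells, of which the IRF4 library held 21. The genes were called in all resting Tcf7 cells, of which these kinds are parts, so agreement in sign was partly built in.

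**Figure D5:**
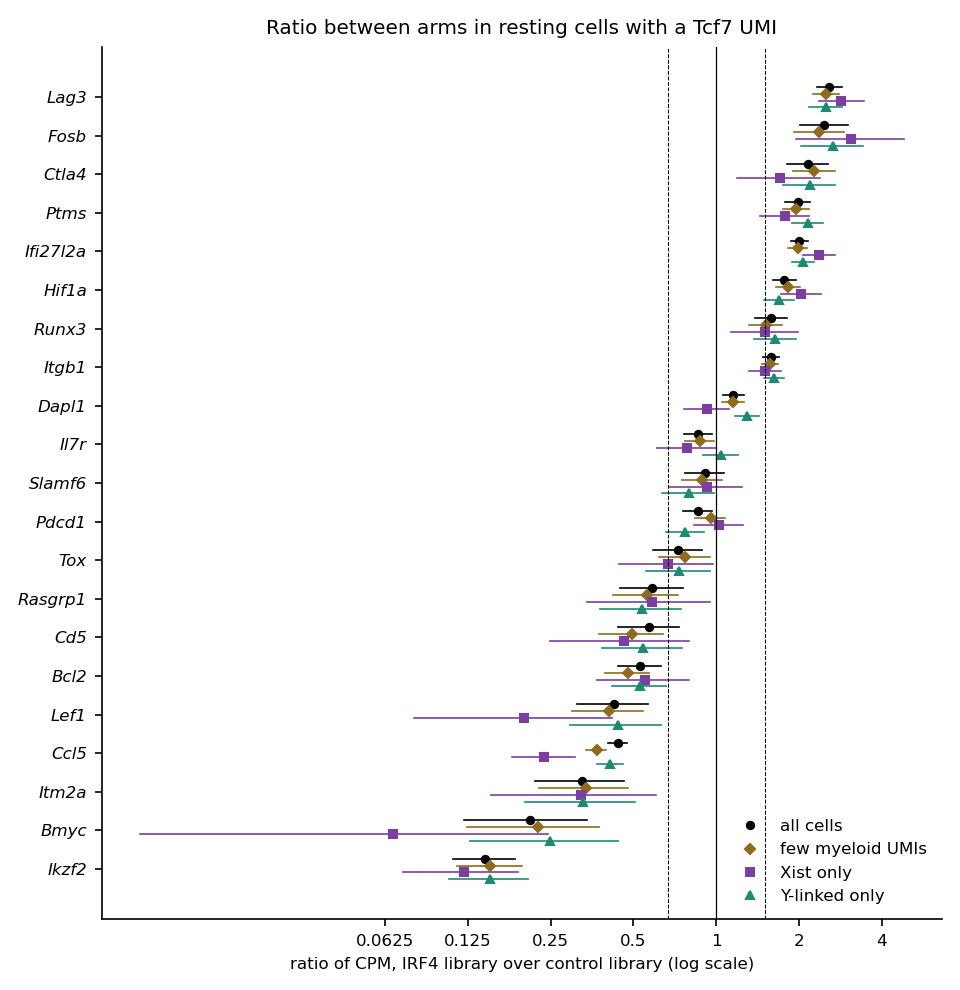
Ratio of CPM in IRF4 over control resting Tcf7 cells (log axis) for 21 genes in all cells, cells with few myeloid UMIs, Xist-only cells and Y-linked-only cells, with 95% intervals for counting error and dashed lines at 1.5 and 1/1.5. Lag3 lies above 1.5 and Ikzf2 below 1/1.5 in each of the 4 sets.

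The 10 highest genes by the naming rule were led by Lag3 and Fosb. The others were Ppp1r15a, a regulator of recovery from translation arrest (30.7 and 71.3 CPM, 2.32), Igfbp7 (35.1 and 80.1 CPM, 2.28), Ctla4, Rgs16, a regulator of G protein signalling (39.2 and 84.0 CPM, 2.14), Ifi27l2a, Ptms (226 and 446 CPM, 1.98), Sdcbp2 (33.3 and 64.4 CPM, 1.94) and Ier5l (28.0 and 52.7 CPM, 1.88). For Igfbp7 and Rgs16, 4 IRF4 cells held 50% of the UMIs, so these ratios rest on few cells. Among cells with few myeloid UMIs, genes with low ratios were Bmyc (79.2 and 16.6 CPM over all resting Tcf7 cells, 0.209), Itm2a, a membrane protein of activated T cells (96.5 and 31.2 CPM, 0.324), Pim1 and Atp8b4 (80.6 and 35.1 CPM, 0.436). Nrgn, a calmodulin-binding protein, was at 349 and 172 CPM (0.492).

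Start-site windows of the named genes were searched for letters that IRF4 and TCF1 are known to bind, to show the sequence beside these values. RefSeq windows of GRCm38.p6, 250 bases before to 50 bases after a gene's start, matched 45 of 58 named genes, and both strands were read. The AP-1 portion of the joint BATF and IRF4 site, TGANTCA, was present in 4 of 45 (8.89%) against 8.97% of all 27025 genes with a window. The interferon-type site, GAAA and GAAA with any 2 bases between them, was present in 4 of 45 (8.89%) against 3.99%, and the TCF1 core CTTTGAA in 1 of 45 against 5.93%. None of the 3 was in the windows of Tcf7, Dapl1 or Il7r. A match is only a description of these letters. Shown 5′ to 3′ on the gene's strand with the motif in capitals are the interferon-type match of Ppp1r15a, higher in the IRF4 library (chr7:45526459-45526508, minus), the reverse-strand match of Ifit3, lower (chr19:34583353-34583402, plus), and the TGANTCA matches of Sdcbp2, higher (chr2:151572559-151572605, plus), Atp8b4, lower (chr2:126491565-126491611, minus), and Havcr2, lower with Tcf7 in the IRF4 library (chr11:46454711-46454757, plus).
Ppp1r15a: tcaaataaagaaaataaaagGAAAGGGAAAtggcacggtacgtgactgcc
Ifit3: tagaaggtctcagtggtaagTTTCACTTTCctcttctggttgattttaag
Sdcbp2: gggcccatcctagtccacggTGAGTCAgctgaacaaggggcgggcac
Atp8b4: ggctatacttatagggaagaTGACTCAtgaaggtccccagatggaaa
Havcr2: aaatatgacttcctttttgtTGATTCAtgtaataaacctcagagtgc

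The resting Tcf7 cells were not uniform. With each cell thinned to 5000 UMIs (576 control and 78 IRF4 cells), 213 and 37 had no Dapl1 UMI, 155 and 21 had 1 or 2, and 208 and 20 had 3 or more. Levels are set side by side between the last and the first group, over 1090 genes, as a description with no test. Nrn1 was at 277 CPM in Dapl1-rich against 91.1 CPM in Dapl1-free control cells, and at 480.0 against 141 CPM in IRF4 cells. Myb had ratios of 1.95 and 7.03, Stap1, a signalling adaptor, 1.82 and 4.63, Tspan32, a tetraspanin, 2.58 and 2.54, and Slamf6 1.91 and 1.67. These genes were picked after their values were seen, so their shared side in the 2 libraries was fixed by the choice. In IRF4 cells the intervals of Tspan32 (0.932 to 7.28) and Slamf6 (0.851 to 3.27) included 1. Slamf6 was at 248 CPM in IRF4 cells with 1 or 2 Dapl1 UMIs, above the Dapl1-rich cells at 190 CPM.

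Dapl1-free cells carried more of several effector and early response genes. Ccl5 was at 601 CPM in Dapl1-rich against 2973 CPM in Dapl1-free control cells, and at 70 against 1173 CPM in IRF4 cells, ratios of 0.202 and 0.0597. S100a4 had ratios of 0.190 and 0.215, Id2 0.194 and 0.463, Cxcr6 0.285 and 0.447, and Ly6c2, a memory-associated surface protein, 0.407 and 0.335. Fos (0.180 and 0.218), Jun (0.474 and 0.374) and Klf6 (0.385 and 0.154), immediate early transcription factors, and Bcl2 (0.460 and 0.257) were on the same side. These genes were picked because both libraries gave the same side, so that agreement was fixed by the choice. Other genes did not do so. Lag3 was at 136 CPM in Dapl1-free and 239 CPM in Dapl1-rich control cells but at 562 and 310.0 CPM in IRF4 cells, and Tnfrsf4, the costimulator OX40, at 94.8 and 286 CPM but at 265 and 181 CPM. In IRF4 cells with 1 or 2 Dapl1 UMIs Ccl5 was at 1457 CPM, above both other groups.

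Endogenous CD8-gated cells that passed the same gates gave a second reference, 297 in the control and 503 in the IRF4 arm, or 33.3% and 23.7% of the endogenous CD8-gated cells. Their medians were 7697 and 7179 UMIs, and their myeloid list stood at 5950 and 2433 CPM, above the transferred cells. Of 7789 genes measured in the control arm 8.28% were higher and 12.3% lower in the transferred cells, and of 7589 in the IRF4 arm 8.54% were higher and 18.3% lower. With ribosomal and mitochondrial genes left out of the total, the higher share of calls in the IRF4 arm went from 31.8% to 42.3%. In both arms 266 genes were higher (45.9% of control and 47.8% of IRF4 calls) and 514 lower (68.5% and 39.2%), among genes measured in both. Xist was the highest gene by the naming rule in both arms, at 436 against 0 CPM in control and 388 against 0.245 CPM in the IRF4 arm, and had a UMI in 207 of 616 and 24 of 80 transferred against 0 of 297 and 1 of 503 endogenous cells. The Pmel-1 cells and endogenous cells thus differ in receptor, transduction and sex-linked transcripts, which cannot be told apart here. The lowest genes were Hba-a1, Hba-a2, Hbb-bt, Ly6d and Siglech in the control arm, for which 1 to 4 endogenous cells held 50% of the UMIs, and Klra7, Gzma, Il1b, Ifit3 and H2-Eb1 in the IRF4 arm.

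Several genes of membrane proteins were higher in the transferred cells. Nrn1 was at 195 against 1.43 CPM in the control arm and 353 against 45.0 CPM in the IRF4 arm, ratios of 136 (53.2 to 501) and 7.85. Tnfrsf4 was at 213 against 20.4 CPM in the control arm, a ratio of 10.4, and the IRF4 arm's ratio was 7.85. Cd200 had ratios of 5.64 and 4.99, and Dapl1 (143 and 124.99 CPM in endogenous cells) 3.45 and 4.55. Of the inhibitory receptors and exhaustion genes 8 of 13 were higher and 3 lower in the control arm (median 0.99), and 5 of 12 and 4 in the IRF4 arm (0.21). Pdcd1, at 60.9 and 164 CPM in endogenous cells, had ratios of 5.49 and 1.74, and Lag3, at 50.1 and 71.2 CPM, 3.62 and 6.57. Ikzf2, at 168 and 271 CPM, had ratios of 2.49 and 0.224, so IRF4-transduced cells lay below their endogenous neighbours where control cells lay above theirs.

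Genes of lymphoid circulation went both ways. Klf2, the factor that keeps T cells quiescent and recirculating, was at 518 and 768 CPM in endogenous cells, with ratios of 0.374 and 0.228. S1pr1, its target, was at 93.5 and 89.8 CPM, with ratios of 0.361 and 0.152. Ccr7 was higher, at 107 and 146 CPM in endogenous cells, with ratios of 2.52 and 2.25. Lef1 had ratios of 0.569 and 0.331, and Ccl5 0.239 and 0.104. Of 16 quiescence genes 4 were lower and 1 higher in the control arm and 8 and 1 in the IRF4 arm (medians -0.37 and -0.68). Of the 12 interferon genes 9 and 11 were lower, with 0 and 1 higher (medians -1.07 and -2.19), and of 16 glycolysis genes 2 were higher and 2 lower in the control arm (0.20) and 8 higher and 0 lower in the IRF4 arm (0.62). Il7r had ratios of 0.830 and 0.749, nearer to level than the genes above. Tcf7, which the rule required in both sets of cells, was at 319.9 and 367 CPM in endogenous cells, with ratios of 0.938 and 0.707. Of 15 stem and memory transcription factors 3 were higher and 4 lower in the control arm and 2 and 7 in the IRF4 arm (medians -0.31 and -0.53). Of the early genes of receptor stimulation 6 of 15 were higher and 5 lower in the control arm and 4 and 8 in the IRF4 arm (-0.13 and -0.69).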

How the data were processed

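Single-cell 3' RNA was measured in 4 libraries, 1 per group, grouped by the labels. The matrices deposited by the authors hold raw UMI counts, a whole number for each gene in each barcode. The submitters' processing notes name Cell Ranger 3.0.2, STAR 2.6 and mm10, and the gene annotation was not given in the sources used here. Per the labels' protocols a 10x Genomics 3' kit was used, and the same text speaks of nuclei although cells were sorted. Barcodes were treated as cells. Transferred cells were gated as described above, and the counts of all cells in a class were added up per library and expressed as CPM. Ratios are plain ratios of CPM with exact conditional binomial intervals, levels have exact Poisson and shares exact Clopper-Pearson intervals, at 95%. These cover counting error only. Calls used a pseudocount of 1 CPM. Cells are not replicates, so no p-value was computed. No doublet caller was run. An alternative left out the 6% of CD8-gated cells with most UMIs in each library. In the transferred libraries its counts of called genes, between arms and over resting cells without Tcf7, equalled the main ones. It therefore could not show whether resting Tcf7 cells include pairs of cells, which was not tested.

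Members and the 22 gene lists (274 genes) were chosen with earlier results of these data known. A few genes first placed in them are not reported here. Genes named are members of the lists, plus the 10 highest and 10 lowest ratios between arms and the 5 highest and 5 lowest in the other comparisons. Such a gene needed 50 CPM, 20 UMIs and 10 cells with a UMI in its higher group. Ribosomal, mitochondrial, predicted and antigen receptor genes and genes of the gating rule were left out. The 10 of each were also named among cells with few myeloid UMIs, a set chosen after seeing the data. The genes set side by side by Dapl1, such as Stap1 and Tspan32, were picked after their values were seen. Windows come from RefSeq and gene coordinates from GENCODE vM21. The sums, ratios and calls were tested on simulated data. Python 3.11.15, numpy 2.4.6, scipy 1.17.1, pandas 2.3.3 and matplotlib 3.10.9 were used.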

Additional observations from a re-analysis of the deposited data

Results flagged for a closer look

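Each of 3 genes differed in opposite directions between the libraries when resting cells with a Tcf7 UMI were set over those without, and the difference between libraries was not tested. H2-Ab1, an MHC class II chain, had ratios of 1.71 in control and 0.229 in IRF4 cells, a gap of 2.82 on the log2 scale, and 0.712 and 0.548 among cells with few myeloid UMIs, where the sign no longer differed. Ikzf2 had ratios of 3.37 and 0.621, a gap of 2.42, and 3.29 and 0.824 among those cells. Nrgn had 3.21 and 0.661, a gap of 2.27, and 2.78 and 0.836. UMIs of both Xist and a Y-linked gene appeared in 61 control and 3 IRF4 resting Tcf7 cells, a signal outside the comparisons of the groups. The 61 had a median of 19848 UMIs, against 11474 over all control resting Tcf7 cells, and whether they are pairs of cells was not tested.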

How the results depend on the processing

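No paired analysis was possible because each group holds 1 library. Of 17 alternatives, 6 were added after seeing the data (few myeloid UMIs, sex-linked kinds, Trbv14, Cd3). The share ratio of resting Tcf7 cells was between 0.509 and 0.558 in the alternatives that apply to it, and 0.431 when gates were set on whole cells and Tcf7 was read in thinned ones. Counts of genes higher and lower follow, where they moved by over 1.5 times, between arms, then over resting cells without Tcf7 (control, IRF4), then over endogenous cells (control, IRF4). In the thinning alternative the gates were set again on the thinned counts, so its cells differ from the main ones. Thinning gave 1082 and 1590 between arms, 847 and 1000 in control, 779 lower in IRF4, and 1369 and 975 higher over endogenous cells. Stricter gates gave 680 and 1194, 877 and 1016, and 1057 and 1044 higher over endogenous cells. A pseudocount of 10 CPM gave 94 and 348, 175 and 247, 373 and 694, then 365 higher, and 372 and 815. A total without ribosomal and mitochondrial genes gave 441, 858, 1331, 999 and 1061 higher. A 50 CPM minimum gave 61 and 99, 84 and 136, 114 and 298, 195 and 312, and 207 and 386. No CPM minimum gave 533 and 1993, 1184 and 1063, 1357 and 1577, and 2249 lower over endogenous IRF4-arm cells. Cells with few myeloid UMIs gave 595 lower over endogenous cells in the control arm, Xist-only cells 979 and 1458 between arms, and Y-linked-only cells 492 higher.

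Log2 ratios that changed sign were, under thinning between arms, Ccl5 0.078, Id2 0.52, Irf4 -0.13, Tsc1 0.61, Btla 0.20, Ccl9 0.078, Ccl1 -1.72, Tnfsf11 0.078, Il2ra -0.62 and Tgfbr1 0.078. Over resting cells without Tcf7 in the control library they were Cxcl2 -0.17, Klra7 0.068 and Ccl6 0.27, and over endogenous cells Hba-a2 0.92. Under stricter gates they were Tnfsf11 0.15, Ccnb2 -0.011, Isg15 0.41 and C1qb 0.30 between arms, Ccl2 -0.86 and Cxcl3 0.53 over resting cells without Tcf7, and Hba-a2 0.48 over endogenous cells. In Xist-only cells they were Ifitm1 0.66, Eomes 0.56, Ccl1 -1.15, Fos -0.61, Ifit3 1.14, Isg15 0.30 and Bbc3 0.22. In Y-linked-only cells they were Il2ra -0.0019, Ccnb2 -0.47, Hk2 -0.40 and C1qb 0.17. The interferon list median was 0.29 with a 50 CPM minimum and 0.0050 in Xist-only cells. Over the alternatives the inhibitory receptor list ran from -0.41 to 0.28 and the cytokine list from -1.72 to 0.72, and the medians within 0.1 of 0 also turned sign in part. The cause was not tested. Depth is limited by the 80 IRF4 cells, where genes near 10 CPM rest on about 10 UMIs.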
